A study of Mus musculus with 9 samples.

Results

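The nuclear-encoded oxidative phosphorylation genes are the genes of the cell nucleus that encode the respiratory chain and the ATP synthase of mitochondria. They were taken from the raw count table by symbol: every row starting with Nduf, Uqcr, Atp5 or Cox followed by 4 to 8, with Sdha, Sdhb, Sdhc and Sdhd, and without rows named as pseudogenes. The rule found 93 genes among 49585 rows. By complex, 36 encode subunits of complex I, 8 are complex I assembly factors of the Ndufaf series, 4 belong to complex II, 8 to complex III, 20 to complex IV and 17 carry an Atp5 symbol of complex V. The protein of Ndufa4 is a subunit of complex IV, so Ndufa4 and its paralog Ndufa4l2 were counted there.

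RNA-seq was done on mouse bone marrow haematopoietic stem cells (HSCs) of wild-type C57BL/6 animals, sorted as CD34-CD150+KSL cells and expanded in F12 medium with 0.1% polyvinyl alcohol (PVA) and cytokines that included 10 ng/ml SCF. KSL cells carry Kit and Sca-1 and lack lineage markers. From these cultures, aged 10 days in the series' design text and a week in the growth protocol, 3 populations were sorted with 3 replicates each: CD201+CD150+CD48-KSL, CD201+CD150+CD48+KSL and CD201-KSL, here called CD201+CD48-, CD201+CD48+ and CD201- cells. All 3 populations came from the same kind of culture, the CD201- libraries are titled CD201-CD150+CD48+KSL, and whether replicates come from separate cultures or animals is not stated by the labels, so p-values measure the spread between these libraries, which may be technical.

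Oxidative phosphorylation joins electron transport to ATP production in the inner mitochondrial membrane. Complex I takes electrons from NADH and complex II from succinate, complex III passes them to cytochrome c, complex IV hands them to oxygen, and complex V makes ATP from the proton gradient that complexes I, III and IV build. In the marrow, HSCs are known for low respiration and a large use of glycolysis, and their differentiating progeny for a larger use of respiration.

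The libraries held 3810123 to 7072885 counts. Levels are CPM, counts scaled to a common library size with TMM factors. Procr, which encodes the sorted antigen CD201, followed its gate (67.1, 59.6 and 62.9 CPM in the CD201+CD48- libraries, 27.3, 24.0 and 28.1 CPM in the CD201+CD48+ libraries and 3.76, 4.52 and 2.41 CPM in the CD201- libraries). Cd48 had 6.18, 6.32 and 5.09 CPM in the CD201+CD48- libraries, 75.0, 86.9 and 88.0 CPM in the CD201+CD48+ libraries and 127, 119.8 and 127 CPM in the CD201- libraries. CD201- replicate 3 stood apart: 584 genes lay over 2-fold from the other libraries of its group, against 53 to 233 genes in the other 8 libraries, and 13663 genes were detected, the fewest of the 9. Where a named result changed its call, or moved by over 1.5 times, without this library, both values are given.

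Summed over its genes, each of the 5 complexes was lowest in CD201+CD48- cells and highest in CD201- cells, and the CD201+CD48+ cells lay between them. The summed level of all 93 members was 6396 ± 263 CPM in CD201+CD48-, 6966 ± 97.5 CPM in CD201+CD48+ and 8243 ± 24.3 CPM in CD201- libraries (SD, n = 3 each). The ranges of the 3 populations did not overlap. The sum in CD201+CD48- cells was 0.776 times, and that in CD201+CD48+ cells 0.845 times, the sum in CD201- cells. As a share of raw counts, with no scaling, the members took 0.640%, 0.679% and 0.688% in CD201+CD48- libraries, 0.702%, 0.716% and 0.715% in CD201+CD48+ libraries and 0.789%, 0.790% and 0.723% in CD201- libraries. In bulk samples, fewer cells of a type and less RNA per cell cannot be told apart.

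By complex, the sum in CD201+CD48- cells over that in CD201- cells was 0.812 for complex I subunits, 0.795 for complex II, 0.738 for complex III, 0.812 for complex IV and 0.741 for complex V. For CD201+CD48+ cells over CD201- cells the same ratios were 0.883, 0.864, 0.808, 0.900 and 0.800. Every CD201+ library lay below every CD201- library in each of the 5. In complex IV the margin was narrow: CD201- replicate 3 had a summed level of 1143 CPM, while the highest CD201+CD48+ library had 1132 CPM. As shares of raw counts the groups overlapped in some complexes. For complex I the CD201+CD48+ libraries held 0.1973% to 0.2045% of counts, above CD201- replicate 3 at 0.1967%. For complex IV the shares were 0.0971% to 0.109% in CD201+CD48- libraries and 0.112% to 0.115% in CD201+CD48+ libraries, with CD201- replicate 3 at 0.1000%, below all but 1 of them.

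**Figure D1:**
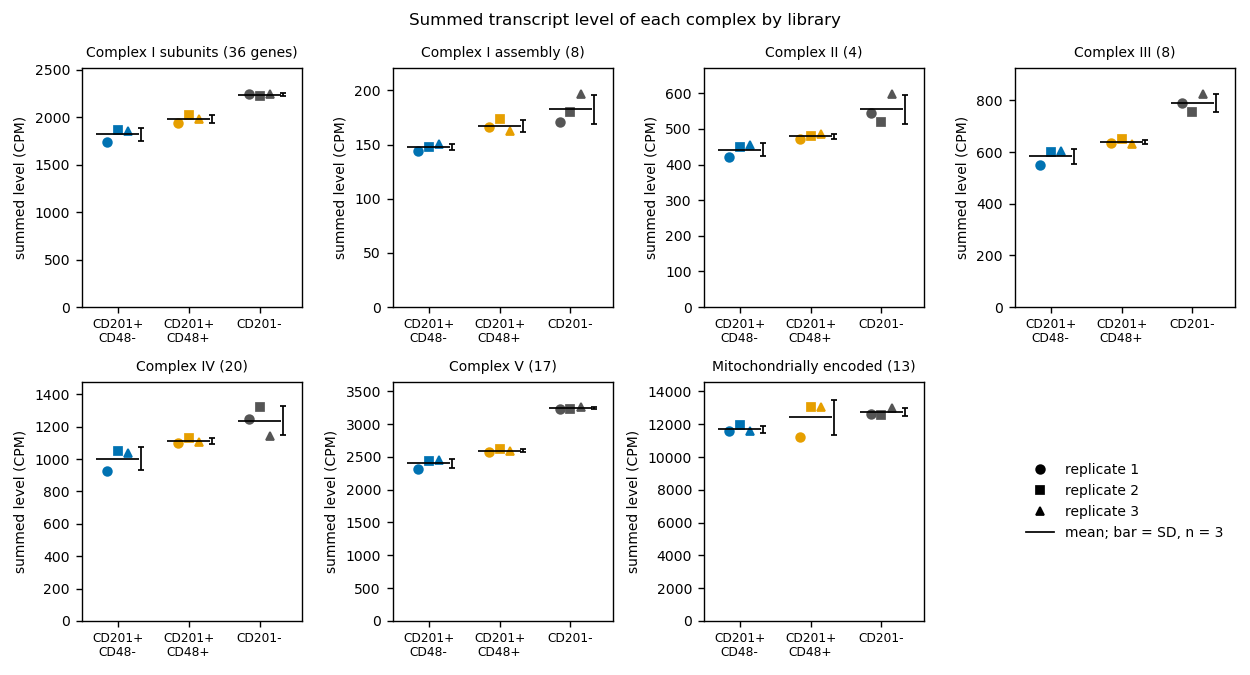
Summed level of each complex in CPM (vertical axes, from 0) by population (horizontal axes), with a point per library, a line at the mean and a bar for the SD (n = 3). The nuclear-encoded complexes are lowest in CD201+CD48- cells and highest in CD201- cells, while the 13 mitochondrially encoded genes average 11700, 12430 and 12750 CPM.

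Gene by gene, 87 of the 93 members had enough counts to be tested among 11619 genes, with the quasi-likelihood test of edgeR and Benjamini-Hochberg adjustment over all tested genes at a threshold of 0.05. In CD201+CD48- against CD201- cells, 49 members were lower, where 23.9% of all tested genes were lower, and 2 were higher, where 24.2% of all tested genes were higher. The remaining 36 tested members did not pass. The median log2 fold change was -0.35 over the members, beside 0.003 over all tested genes. In CD201+CD48+ against CD201- cells, 20 members were lower and 0 higher, beside 14.3% and 14.8% of all tested genes, with a median of -0.17 beside -0.002. In that comparison 2 members were higher at an unadjusted p under 0.05 in edgeR, and 0 were higher by DESeq2 or limma after adjustment. The share of all tested genes at that unadjusted threshold is not given here. At 23.0%, the share of members lower in that comparison stands nearer to its background than the 56.3% in the first. These comparisons share the CD201- libraries.

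Between the CD201+ populations, 4 members were lower in CD201+CD48- cells than CD201+CD48+ cells and 0 were higher, beside 6.31% of all tested genes lower and 9.05% higher. The 4 are 4.60% of the members, a share near the background. The median log2 fold change over the members was -0.12, beside -0.005 over all tested genes. A negative sign was found in 72 of the 87, beside 5900 of 11619 tested genes. At an unadjusted p under 0.05 in edgeR, 11 members were lower and 1 was higher, and DESeq2 and limma called 0 higher. The share of all tested genes at that unadjusted threshold is not given here, so the counts of 11 and 1 have no background beside them. In 64 of the 87 tested members (73.6%) the group means rose in the order CD201+CD48-, CD201+CD48+, CD201-. That order was found in 32.1% of all tested genes.

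Without CD201- replicate 3, the counts of lower members were 53, 37 and 14 in the same 3 comparisons, and of higher members 2, 1 (Cox7a2l) and 1 (Cox6b2). The lower members were then 60.9%, 42.5% and 16.1% of the members, beside 26.0%, 17.9% and 14.5% of all tested genes called lower, so that between the CD201+ populations the share was near the background. Of all tested genes 25.6%, 18% and 15.4% were then called higher. Leaving out CD201+CD48+ replicate 3 or replicate 1 gave 9 and 11 lower members in CD201+CD48+ against CD201- cells. These are 10.3% and 12.6% of the members, beside 9.10% and 10.3% of all tested genes, so the members' share in that comparison was near the background without either library. Leaving out CD201+CD48- replicate 1 or CD201+CD48+ replicate 1 gave 1 lower member between the CD201+ populations, and leaving out CD201+CD48- replicate 2 or 3 or CD201+CD48+ replicate 3 gave 2. With library size alone as the scaling, the median of all genes moved to 0.17 in CD201+CD48- and to 0.13 in CD201+CD48+ against CD201- cells, the lower members numbered 27 and 6, and the members' median relative to that of all genes was -0.35 and -0.17.

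**Figure D2:**
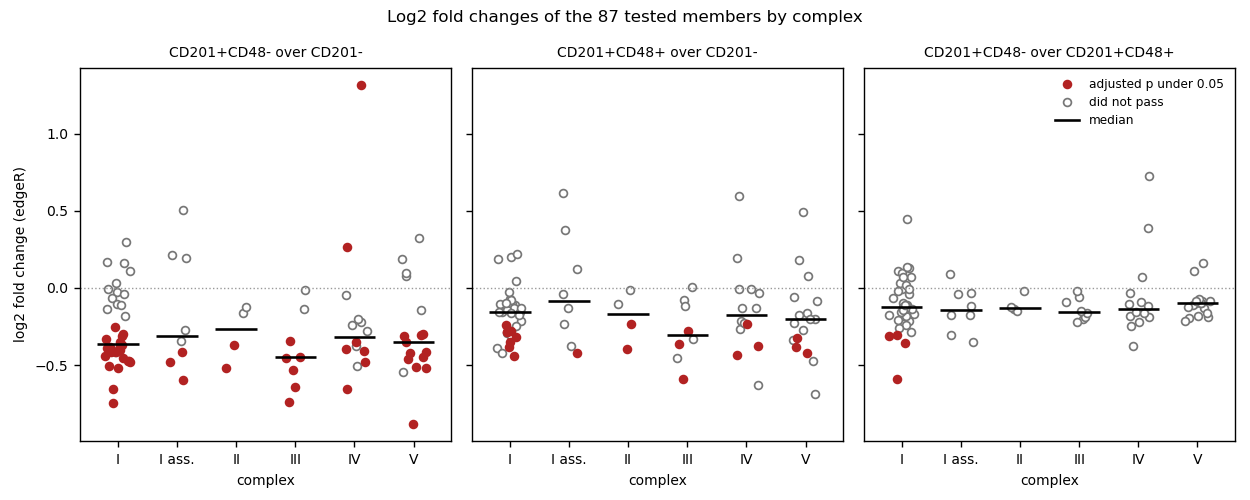
The edgeR log2 fold change (vertical axis) of each of the 87 tested members by complex (horizontal axis; I ass., complex I assembly factors), in 3 comparisons; filled points have an adjusted p under 0.05 and lines are medians. Filled points lie below 0 in the first panel except for Cox7a2l and Cox6b2, and all lie below 0 in the other panels.

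Among the sequences near the start of these genes, RefSeq promoter windows of GRCm38.p6, the assembly of mm10, from 250 bases before to 50 bases within the transcript, matched 77 of the 93 members. They were searched on both strands for letters of factors known to act on respiratory genes: CGCANGCG for NRF1, CCGGAAG for GABP and other ETS factors, AAGATGGCG for YY1, TCAAGGTCA for ESRRA, and the E-box CACGTG bound by MYC. A gene counted as holding letters where any of its windows did, with 32851 windows in all. NRF1 letters were found in 29 members (37.7%), against 20.5% of 8936 tested genes and 9.22% of all genes with a window. ETS letters were in 18 members (23.4%, against 21.4% and 9.93%) and YY1 letters in 9 (11.7%, against 3.86% and 1.64%). ESRRA letters were in 2 members (2.6%, against 0.336% and 0.466%), and the E-box was in 7 (9.09%, against 12.0% and 8.09%). At least 1 of the NRF1, ETS and YY1 letters stood in 45 of 77 members (58.4%), against 39.3% of tested genes. A match describes letters in the window and does not show binding.

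The windows below belong to the members with the smallest p in CD201+CD48- against CD201- cells among those whose window could be shown and held searched letters, Sdhd and Uqcrc1, and to Ndufc1, added for its YY1 letters after its values were seen. Sequences are 5′ to 3′ along the gene's strand, and capitals mark the searched letters. In Sdhd (chr9:50603800-50604099, minus strand) these are NRF1 letters starting 78 bases and ETS letters, on the reverse strand, 46 bases before the start, and ESRRA letters, also reversed, from transcript base 37. In Uqcrc1 (chr9:108936398-108936697, plus strand) NRF1 letters start at transcript bases 7, reversed, and 32. In Ndufc1 (chr3:51408906-51409205, minus strand) YY1 letters start at transcript base 23. The marked letters of different motifs do not overlap in these windows.
Sdhd: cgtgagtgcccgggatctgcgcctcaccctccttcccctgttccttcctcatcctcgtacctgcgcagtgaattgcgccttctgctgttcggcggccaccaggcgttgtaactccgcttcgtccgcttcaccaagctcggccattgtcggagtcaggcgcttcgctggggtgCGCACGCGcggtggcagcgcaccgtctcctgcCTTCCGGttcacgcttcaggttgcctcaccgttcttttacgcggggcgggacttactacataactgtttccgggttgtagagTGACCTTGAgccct
Uqcrc1: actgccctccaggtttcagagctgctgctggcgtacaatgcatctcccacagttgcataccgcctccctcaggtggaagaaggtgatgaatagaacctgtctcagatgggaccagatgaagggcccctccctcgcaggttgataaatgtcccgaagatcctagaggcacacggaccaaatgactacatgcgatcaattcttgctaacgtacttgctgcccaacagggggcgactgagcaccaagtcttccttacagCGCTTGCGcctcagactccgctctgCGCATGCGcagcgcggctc
Ndufc1: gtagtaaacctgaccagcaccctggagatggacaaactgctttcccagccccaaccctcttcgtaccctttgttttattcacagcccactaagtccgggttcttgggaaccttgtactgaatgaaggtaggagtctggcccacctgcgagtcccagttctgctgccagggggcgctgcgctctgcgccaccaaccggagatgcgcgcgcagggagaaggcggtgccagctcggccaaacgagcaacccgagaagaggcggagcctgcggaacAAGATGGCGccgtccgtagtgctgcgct

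Members with NRF1 letters had a median log2 fold change of -0.37 in CD201+CD48- against CD201- cells (29 tested, 20 lower), and the tested members whose window lacked them had -0.31 (45 tested, 22 lower). For ETS letters the medians were -0.30 with (10 of 18 lower) and -0.36 without (32 of 56 lower). For YY1 letters they were -0.39 with (6 of 9 lower) and -0.34 without (36 of 65 lower). These are descriptions of overlapping sets, and differences between them were not tested.

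In complex I, the entry point for NADH, 22 of 36 subunit genes were lower in CD201+CD48- than CD201- cells, 8 were lower in CD201+CD48+ than CD201- cells, and 4 were lower in CD201+CD48- than CD201+CD48+ cells. These are 61.1%, 22.2% and 11.1% of the 36, beside 23.9%, 14.3% and 6.31% of all tested genes called lower. Without CD201- replicate 3 the counts were 19, 12 and 6. That is 52.8%, 33.3% and 16.7%, beside 26.0%, 17.9% and 14.5% of all tested genes, and the last share was near the background. With all libraries, none of the 36 was higher in these 3 comparisons, at an adjusted or an unadjusted p under 0.05 in edgeR, DESeq2 or limma. Among the nuclear-encoded core subunits, which form the arm that takes electrons from NADH to quinone, Ndufv1, Ndufv2, Ndufs1, Ndufs7 and Ndufs8 were lower in CD201+CD48- than CD201- cells. Ndufv1, the subunit that binds NADH and flavin, had 52.1, 56.8 and 60.0 CPM in the CD201+CD48- libraries, 67.0, 68.4 and 66.6 CPM in the CD201+CD48+ libraries and 72.4, 83.3 and 78.5 CPM in the CD201- libraries. The 3 populations did not overlap in Ndufv1, and the log2 fold change against CD201- cells was -0.47 ± 0.09 (SE, adjusted p = 0.000381) in CD201+CD48- cells and -0.21 ± 0.08 (SE, adjusted p = 0.07) for the CD201+CD48+ population, where it passed without CD201- replicate 1, at -0.27 (adjusted p = 0.044).

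Ndufv2, an iron-sulfur subunit beside Ndufv1, had a log2 fold change of -0.38 ± 0.08 (SE, adjusted p = 0.0008) in CD201+CD48- against CD201- cells. Ndufs1, the largest iron-sulfur subunit, had -0.38 ± 0.09 (SE, adjusted p = 0.00196) in the same comparison. Ndufs7, which holds the last cluster before quinone, had -0.39 ± 0.09 (SE, adjusted p = 0.00245). The core subunit Ndufs3, at -0.18 ± 0.12 (SE, adjusted p = 0.212), did not pass, and had -0.11 (adjusted p = 0.533) without CD201+CD48- replicate 1. Ndufs8, at -0.31 ± 0.11 (SE, adjusted p = 0.0279), lost its call in 7 of 17 alternatives, including without CD201+CD48- replicate 2 and without CD201- replicate 1 or 2 (adjusted p over all alternatives 0.00902 to 0.346).

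The 4 members lower in CD201+CD48- than CD201+CD48+ cells are all genes of complex I. Ndufa10, an accessory subunit of the membrane arm, had 103, 97.3 and 98.3 CPM in the CD201+CD48- libraries, 122, 124 and 124 CPM in the CD201+CD48+ libraries and 134, 139 and 126 CPM in the CD201- libraries. Its CD201+CD48- libraries lay below all others, and the log2 fold change was -0.31 ± 0.07 (SE, adjusted p = 0.00875) against CD201+CD48+ cells and -0.42 ± 0.07 (SE, adjusted p = 0.000215) against CD201- cells. Between the CD201+ populations, its call held in all 17 alternatives, with adjusted p from 0.000118 to 0.0453. Ndufc1, a small membrane-arm subunit, had 35.3, 44.2 and 43.6 CPM in the CD201+CD48- libraries, 67.5, 53.3 and 63.4 CPM in the CD201+CD48+ libraries and 62.4, 59.4 and 83.7 CPM in the CD201- libraries. CD201+CD48- libraries again lay below the rest, while the CD201+CD48+ and CD201- libraries overlapped.

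For Ndufc1 the log2 fold change of CD201+CD48- cells was -0.59 ± 0.14 (SE, adjusted p = 0.00967) against CD201+CD48+ cells and -0.75 ± 0.14 (SE, adjusted p = 0.000513) against CD201- cells. Against CD201+CD48+ cells the call was lost without CD201+CD48- replicate 1 or without CD201+CD48+ replicate 1, with adjusted p over all alternatives from 5.05e-07 to 0.0679. Ndufab1, the mitochondrial acyl carrier protein, which is also a complex I subunit, had 65.5, 59.1 and 66.9 CPM in CD201+CD48- cells, against 83.0, 72.2 and 82.1 CPM in CD201+CD48+ cells. Ndufs8, a core iron-sulfur subunit, had 31.2, 25.8 and 31.0 CPM in CD201+CD48- cells, against 39.0, 37.8 and 36.9 CPM in CD201+CD48+ cells. The log2 fold changes between the CD201+ populations were -0.31 ± 0.10 (SE, adjusted p = 0.0462) for Ndufab1 and -0.36 ± 0.11 (SE, adjusted p = 0.0318) for Ndufs8. These calls are near the threshold: 11 and 9 of 17 alternatives lost them, among them leaving out any of the 3 CD201+CD48- libraries or CD201+CD48+ replicate 1 or 3, and for Ndufs8 CD201+CD48+ replicate 2.

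Among the other accessory subunits, Ndufc2 had a log2 fold change of -0.47 ± 0.09 (SE, adjusted p = 0.000417) in CD201+CD48- against CD201- cells. Ndufb10 and Ndufb7, in the membrane arm, had log2 fold changes of -0.38 ± 0.09 (SE, adjusted p = 0.00558) and -0.32 ± 0.09 (SE, adjusted p = 0.0165) in CD201+CD48+ against CD201- cells, and Ndufa5, in the peripheral arm, had -0.44 ± 0.11 (SE, adjusted p = 0.00878). The call of Ndufb7 was lost without CD201+CD48+ replicate 1 or 3 (adjusted p over all alternatives 0.00523 to 0.157), and that of Ndufa5 without CD201+CD48+ replicate 3 (0.00147 to 0.0532). The Ndufb10 level was 56.0, 65.2 and 61.8 CPM in the CD201+CD48- libraries, 64.2, 64.6 and 56.5 CPM in the CD201+CD48+ libraries and 85.4, 74.7 and 81.3 CPM in the CD201- libraries, so the CD201+ populations overlapped each other and lay below CD201- cells. The log2 fold changes of complex I subunits in CD201+CD48- against CD201- cells ran from -0.75 in Ndufc1 to 0.30 in Ndufa11 (adjusted p = 0.163). The upper end rests on the CD201- libraries: Ndufa11 had 0.11 (adjusted p = 0.53) without CD201- replicate 3 and 0.55 (adjusted p = 0.00753) without CD201- replicate 1.

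The 8 Ndufaf genes build complex I and are not part of it. In CD201+CD48- against CD201- cells 3 of the 8 were lower, Ndufaf2 at -0.60 ± 0.13 (SE, adjusted p = 0.00171), Ndufaf4 at -0.48 ± 0.15 (SE, adjusted p = 0.0138) and Ndufaf7 at -0.41 ± 0.15 (SE, adjusted p = 0.0309). The 3 are 37.5% of the 8, beside 23.9% of all tested genes. Without CD201- replicate 3, Ndufaf4 had -0.31 (adjusted p = 0.0168), Ndufaf7 had -0.31 (adjusted p = 0.0928) and 2 of the 8 were lower. These 2 are 25%, beside 26.0% of all tested genes, a share near the background. The call of Ndufaf4 was lost without CD201+CD48- replicate 1, and that of Ndufaf7 also without CD201+CD48- replicate 3 or CD201- replicate 2. In CD201+CD48+ against CD201- cells 1 of the 8 was lower (12.5%, beside 14.3% of all tested genes), Ndufaf2 at -0.42 ± 0.13 (SE, adjusted p = 0.0221). It had -0.27 (adjusted p = 0.0834) without CD201- replicate 3, and this call was also lost without CD201+CD48+ replicate 2 or 3.

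Complex II, succinate dehydrogenase, is also an enzyme of the tricarboxylic acid cycle and has no mitochondrially encoded subunit. Of its 4 genes, Sdhd and Sdha were lower in both CD201+ populations than CD201- cells, and Sdhb and Sdhc did not pass. The lower genes are 50% of the 4 in each comparison, beside 23.9% and 14.3% of all tested genes. Sdhd, a membrane anchor whose promoter is printed above, lies at chr9:50596340-50603849 (GRCm38.p6) and had 57.0, 60.9 and 64.7 CPM in the CD201+CD48- libraries, 66.6, 64.6 and 67.3 CPM in the CD201+CD48+ libraries and 88.1, 85.6 and 87.9 CPM in the CD201- libraries. The CD201- libraries were tight and lay above all CD201+ libraries. The log2 fold change of Sdhd was -0.52 ± 0.08 (SE, adjusted p = 7.33e-05) in CD201+CD48- and -0.40 ± 0.08 (SE, adjusted p = 0.00147) in CD201+CD48+ against CD201- cells.

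Sdha, the flavoprotein that oxidises succinate, had 236, 257 and 261 CPM in the CD201+CD48- libraries, 269, 279.5 and 279.7 CPM in the CD201+CD48+ libraries and 313, 297 and 365 CPM in the CD201- libraries, with no overlap between CD201- and either CD201+ population. Its log2 fold change was -0.37 ± 0.09 (SE, adjusted p = 0.00206) in CD201+CD48- and -0.24 ± 0.08 (SE, adjusted p = 0.0481) in CD201+CD48+ against CD201- cells. The CD201+CD48+ call is near the threshold and was lost in 13 of 17 alternatives, among them leaving out any 1 library other than CD201- replicate 2, and without CD201- replicate 3 the log2 fold change was -0.14 (adjusted p = 0.0547). Over all alternatives the adjusted p ran from 0.0235 to 0.302. Sdhb, the iron-sulfur subunit, had -0.16 ± 0.09 (SE, adjusted p = 0.169) in CD201+CD48- against CD201- cells, and -0.25 (adjusted p = 0.0139) without CD201- replicate 3. Sdhc, the other anchor, had -0.13 ± 0.10 (SE, adjusted p = 0.327), and 0.00047 (adjusted p = 0.997) without CD201- replicate 3. Without that library 3 of the 4 genes were lower in CD201+CD48- and 1 in CD201+CD48+ than CD201- cells. These are 75% and 25%, beside 26.0% and 17.9% of all tested genes.

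Complex III, which passes electrons from quinol to cytochrome c, had 6 of 8 genes lower in CD201+CD48- than CD201- cells and 3 of 8 lower in CD201+CD48+ than CD201- cells. These are 75% and 37.5% of the 8, beside 23.9% and 14.3% of all tested genes. Leaving out CD201- replicate 3 gave 7 and 5 (87.5% and 62.5%, beside 26.0% and 17.9%). Uqcrq, a small subunit, had the smallest p of all members in CD201+CD48- against CD201- cells. It lies at chr11:53427922-53430831 (GRCm38.p6), in a span that overlaps Gdf9, and had 66.0, 83.4 and 83.0 CPM in the CD201+CD48- libraries, 88.7, 82.8 and 84.7 CPM in the CD201+CD48+ libraries and 124, 126 and 137 CPM in the CD201- libraries. The CD201- libraries lay far above both CD201+ populations, which overlapped each other. The log2 fold change was -0.74 ± 0.09 (SE, adjusted p = 1.14e-05) in CD201+CD48- and -0.59 ± 0.09 (SE, adjusted p = 0.000192) in CD201+CD48+ against CD201- cells.

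Uqcrc1 and Uqcrc2, the core proteins of the complex, were lower in both CD201+ populations than CD201- cells. Uqcrc1 had 145, 141 and 156 CPM in the CD201+CD48- libraries, 167, 153 and 151 CPM in the CD201+CD48+ libraries and 193, 191 and 222 CPM in the CD201- libraries, with log2 fold changes against CD201- cells of -0.46 ± 0.08 (SE, adjusted p = 0.000275) in CD201+CD48- cells and -0.36 ± 0.08 (SE, adjusted p = 0.00342) in CD201+CD48+ cells. Uqcrc2 had -0.44 ± 0.09 (SE, adjusted p = 0.00115) and -0.28 ± 0.09 (SE, adjusted p = 0.0319), and the CD201+CD48+ call was lost without CD201+CD48+ replicate 2 or 3 and without CD201- replicate 1 (adjusted p over all alternatives 0.0216 to 0.247). Uqcrfs1, the Rieske iron-sulfur protein, had -0.34 ± 0.09 (SE, adjusted p = 0.00735) in CD201+CD48- against CD201- cells, and Uqcr11 had -0.53 ± 0.13 (SE, adjusted p = 0.00256). Uqcrb, a quinone-binding subunit, had -0.64 (adjusted p = 0.0253), a value that rests partly on CD201- replicate 3: it was -0.31 (adjusted p = 0.00407) without it, and the call was lost without CD201+CD48- replicate 1 or 3. Uqcrh and Uqcr10 did not pass in these comparisons, and Uqcr10, over 2-fold low in CD201- replicate 3, had -0.43 (adjusted p = 0.0017) in CD201+CD48- and -0.37 (adjusted p = 0.00849) in CD201+CD48+ against CD201- cells without it.

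Complex IV, cytochrome c oxidase, was the most mixed. Of its 14 tested genes, 5 were lower in CD201+CD48- than CD201- cells and 2 were higher, and 3 were lower in CD201+CD48+ than CD201- cells. The lower genes are 35.7% and 21.4% of the 14, beside 23.9% and 14.3% of all tested genes. The 2 higher are 14.3%, beside 24.2% of all tested genes. Without CD201- replicate 3 those counts were 9 lower and 2 higher, and 8 lower and 1 higher. The lower genes were then 64.3% and 57.1%, beside 26.0% and 17.9% of all tested genes. Cox5b, a subunit on the matrix side, had 75.0, 82.4 and 77.3 CPM in the CD201+CD48- libraries, 83.9, 98.8 and 90.5 CPM in the CD201+CD48+ libraries and 114, 97.3 and 158 CPM in the CD201- libraries. CD201- replicate 3 was the highest library, and its absence changed the log2 fold change of CD201+CD48- against CD201- cells from -0.66 ± 0.14 (SE, adjusted p = 0.00185) to -0.44 (adjusted p = 1.25e-05). In CD201+CD48+ against CD201- cells Cox5b had -0.44 ± 0.14 (SE, adjusted p = 0.0312) with overlapping libraries, -0.21 (adjusted p = 0.0355) without CD201- replicate 3, and no call without CD201+CD48+ replicate 1 or 3 (adjusted p over all alternatives 5.64e-05 to 0.106).

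Cox7b, a small membrane subunit, had 107, 109 and 108 CPM in CD201+CD48- cells, against 143, 157 and 131 CPM in CD201- cells. All CD201+CD48- libraries lay below the CD201- libraries, at a log2 fold change of -0.41 ± 0.09 (SE, adjusted p = 0.000959). Cox6c, also a membrane subunit, had -0.35 ± 0.08 (SE, adjusted p = 0.00259) in CD201+CD48- and -0.23 ± 0.08 (SE, adjusted p = 0.0456) in CD201+CD48+ against CD201- cells. The CD201+CD48+ call of Cox6c was lost in 11 of 17 alternatives, among them leaving out any CD201+CD48- library, CD201+CD48+ replicate 1 or 3, or CD201- replicate 1 or 2 (adjusted p 0.00413 to 0.356). Cox5a, also on the matrix side, showed how far CD201- replicate 3 could set a call. It had 37.3, 40.9 and 43.2 CPM in the CD201+CD48- libraries, 43.4, 45.2 and 54.2 CPM in the CD201+CD48+ libraries and 77.2, 65.6 and 29.4 CPM in the CD201- libraries, with a log2 fold change of -0.51 ± 0.28 (SE, adjusted p = 0.171) in CD201+CD48- against CD201- cells and -0.83 (adjusted p = 7.29e-10) without that replicate. It was -0.24 (adjusted p = 0.49) without CD201- replicate 1.

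The 2 members that were higher in CD201+CD48- than CD201- cells are both genes of complex IV by symbol. Cox7a2l (chr17:83501917-83514333, GRCm38.p6) encodes a factor that joins complexes III and IV into supercomplexes, and C57BL/6 mice are known to carry a shortened allele of it. It had 131, 128 and 138 CPM in the CD201+CD48- libraries, 130.0, 119 and 129 CPM in the CD201+CD48+ libraries and 102, 116 and 113 CPM in the CD201- libraries, and every CD201+ library lay above every CD201- library. The log2 fold change was 0.26 ± 0.08 (SE, adjusted p = 0.0101) in CD201+CD48- and 0.19 ± 0.08 (SE, adjusted p = 0.071) in CD201+CD48+ against CD201- cells. The CD201+CD48- call was lost without CD201+CD48- replicate 3 or without CD201- replicate 1 (adjusted p over all alternatives 0.00031 to 0.0556). In CD201+CD48+ cells it passed without CD201- replicate 3, at 0.21 (adjusted p = 0.0213).

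Cox6b2 (chr7:4751792-4753094, GRCm38.p6), the isoform of Cox6b known from testis, had 8.47, 5.31 and 5.54 CPM in the CD201+CD48- libraries, 4.44, 3.78 and 3.71 CPM in the CD201+CD48+ libraries and 3.10, 2.58 and 2.19 CPM in the CD201- libraries. The 3 populations did not overlap, with CD201+CD48- cells highest. Its log2 fold change was 1.32 ± 0.29 (SE, adjusted p = 0.00159) in CD201+CD48- against CD201- cells, 0.59 ± 0.31 (SE, adjusted p = 0.159) in CD201+CD48+ against CD201- cells and 0.72 ± 0.26 (SE, adjusted p = 0.0708) in CD201+CD48- against CD201+CD48+ cells, where it was 0.73 (adjusted p = 0.0243) without CD201- replicate 3 and 0.45 (adjusted p = 0.388) without CD201+CD48- replicate 1. Its common paralog Cox6b1 had 41.2 ± 4.22 CPM in CD201+CD48-, 43.6 ± 1.81 CPM in CD201+CD48+ and 47.7 ± 11.1 CPM in CD201- libraries (SD, n = 3 each), at a log2 fold change of -0.22 ± 0.15 (SE, adjusted p = 0.235) in CD201+CD48- against CD201- cells and -0.40 (adjusted p = 0.000962) without CD201- replicate 3. The windows of Cox7a2l and Cox6b2 held none of the searched NRF1, ETS or YY1 letters.

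Complex IV is also where tissue isoforms are found. The 6 members with too few counts to be tested are such isoforms or paralogs: Cox6a2, Cox7a1 and Cox8b, known from heart and skeletal muscle, Cox7b2 and Cox8c, known from testis, and Ndufa4l2, known as a target of hypoxia-inducible factors. Summed over the 3 libraries of a population, Cox7a1 had 10 counts in CD201+CD48-, 15 in CD201+CD48+ and 8 in CD201- cells, the highest of the 6. Cox8c had 0 counts in every library, which allows up to 0.212 CPM in CD201+CD48-, 0.163 CPM in CD201+CD48+ and 0.219 CPM in CD201- cells, for counting error over the 3 libraries. Of the counterparts that are common to most tissues, Cox7a2 had 33.5 ± 1.78 CPM in CD201+CD48-, 35.9 ± 1.07 CPM in CD201+CD48+ and 46.8 ± 8.64 CPM in CD201- libraries (SD, n = 3 each) and a log2 fold change of -0.48 ± 0.13 (SE, adjusted p = 0.00537) in CD201+CD48- against CD201- cells. Cox6a1 had -0.40 ± 0.14 (SE, adjusted p = 0.0326) in the same comparison, a call lost in 8 of 17 alternatives, including without any 1 of the CD201+CD48- libraries and without CD201- replicate 2 (adjusted p 1.36e-05 to 0.251). Cox8a had -0.28 ± 0.28 (SE, adjusted p = 0.443), and -0.60 (adjusted p = 2.08e-07) without CD201- replicate 3, where it was over 2-fold low.

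Cox4i1, the common form of the regulatory subunit Cox4, had 106, 183 and 174 CPM in the CD201+CD48- libraries, 217, 183 and 197 CPM in the CD201+CD48+ libraries and 190.3, 224 and 184 CPM in the CD201- libraries. The first CD201+CD48- library lay below the other 8, and the log2 fold change against CD201- cells was -0.38 ± 0.17 (SE, adjusted p = 0.0863). It was -0.16 (adjusted p = 0.255) without that library, and -0.52 (adjusted p = 0.0285) without CD201+CD48- replicate 2. Its paralog Cox4i2, known from lung and from hypoxic cells, lies in a span that overlaps Bcl2l1. It had 12.5 ± 2.13 CPM in CD201+CD48-, 9.59 ± 0.685 CPM in CD201+CD48+ and 14.9 ± 6.48 CPM in CD201- libraries (SD, n = 3 each) and did not pass in the 3 comparisons. In CD201+CD48+ against CD201- cells it had -0.63 (adjusted p = 0.0676), and passed without CD201- replicate 1, at -0.79 (adjusted p = 0.0282), or CD201- replicate 2, at -0.81 (adjusted p = 0.0237). CD201- replicate 3 was the highest library, at 22.4 CPM against 11.3 and 11.0 CPM in the other CD201- libraries. Without it the log2 fold change was -0.21 (adjusted p = 0.433), and that of CD201+CD48- against CD201- cells went from -0.24 to 0.17 (adjusted p = 0.477). Ndufa4, whose protein sits in complex IV, had -0.20 ± 0.16 (SE, adjusted p = 0.32) in CD201+CD48- against CD201- cells, and -0.38 (adjusted p = 0.00451) without CD201- replicate 3.

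**Figure D3:**
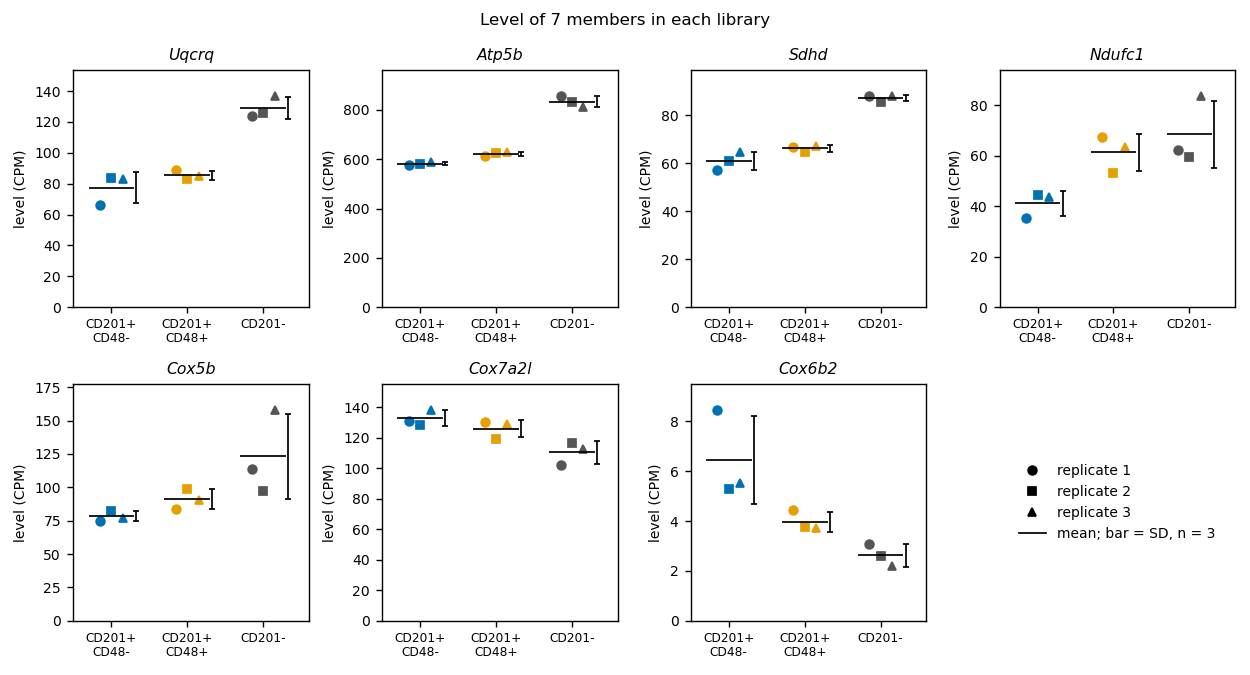
Level in CPM (vertical axes, from 0) of 7 members in each library, by population, with a line at the mean and a bar for the SD (n = 3). Uqcrq, Atp5b, Sdhd, Ndufc1 and Cox5b are lowest in CD201+CD48- cells, and Cox7a2l and Cox6b2 are highest there.

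Complex V, the ATP synthase, had 11 of 17 genes lower in CD201+CD48- than CD201- cells and 3 of 17 lower in CD201+CD48+ than CD201- cells. These are 64.7% and 17.6%, beside 23.9% and 14.3% of all tested genes. The counts were 13 and 11 of 17 without CD201- replicate 3, beside 26.0% and 17.9% of all tested genes. Atp5b (chr10:128083307-128090388, GRCm38.p6) and Atp5a1 (chr18:77773768-77782869, GRCm38.p6) encode the β and α subunits of the catalytic F1 head. Atp5b had 576, 583 and 588 CPM in the CD201+CD48- libraries, 612, 625 and 629 CPM in the CD201+CD48+ libraries and 858, 832 and 813 CPM in the CD201- libraries. The 3 populations were separate and each was tight, and the log2 fold change against CD201- cells was -0.52 ± 0.07 (SE, adjusted p = 3.3e-05) in CD201+CD48- cells and -0.42 ± 0.07 (SE, adjusted p = 0.000524) in CD201+CD48+ cells. Atp5a1 had 665, 703 and 698 CPM in the CD201+CD48- libraries, 747, 779 and 737 CPM in the CD201+CD48+ libraries and 948, 958 and 1047 CPM in the CD201- libraries, again with separate populations. Its log2 fold change was -0.52 ± 0.08 (SE, adjusted p = 7.11e-05) in CD201+CD48- and -0.38 ± 0.08 (SE, adjusted p = 0.00202) in CD201+CD48+ against CD201- cells.

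Of the 5 genes of the F1 head, 3 were lower in CD201+CD48- than CD201- cells (60%, beside 23.9% of all tested genes). The third was Atp5c1, the rotating γ subunit, at -0.30 ± 0.08 (SE, adjusted p = 0.00375). Atp5d and Atp5e, the δ and ε subunits, had -0.14 ± 0.13 (SE, adjusted p = 0.374) and 0.19 ± 0.20 (SE, adjusted p = 0.459). Without CD201- replicate 3, Atp5d had -0.30 (adjusted p = 0.00123), which made 4 of the 5 lower (80%, beside 26.0% of all tested genes). Atp5e then turned to -0.04 (adjusted p = 0.834). Without CD201- replicate 1, Atp5e had 0.45 (adjusted p = 0.043). Among the 9 other genes outside the c-ring, 7 were lower in CD201+CD48- than CD201- cells (77.8%, beside 23.9% of all tested genes). Atp5f1, here the older symbol of the b subunit of the stalk, had -0.42 ± 0.09 (SE, adjusted p = 0.000948) in CD201+CD48- and -0.33 ± 0.09 (SE, adjusted p = 0.0106) in CD201+CD48+ against CD201- cells, and the CD201+CD48+ call was lost without CD201+CD48+ replicate 1 (adjusted p over all alternatives 0.00241 to 0.0625). Atp5o, which holds the stalk to the head, had -0.41 ± 0.09 (SE, adjusted p = 0.00128) in CD201+CD48- against CD201- cells, and Atp5j2, the f subunit in the membrane, had -0.46 ± 0.11 (SE, adjusted p = 0.00249).

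Atp5k, the e subunit that helps join ATP synthases into dimers, had the lowest log2 fold change of all members in CD201+CD48- against CD201- cells, at -0.88 ± 0.25 (SE, adjusted p = 0.0128). Its level was 23.3, 25.3 and 23.0 CPM in the CD201+CD48- libraries, 20.5, 36.3 and 25.4 CPM in the CD201+CD48+ libraries and 40.5, 30.1 and 61.1 CPM in the CD201- libraries, and CD201- replicate 3 was the highest. Without it the log2 fold change was -0.57 (adjusted p = 0.0322). The 2 other genes without a call outside the head and the c-ring were Atp5s, at 0.32 ± 0.21 (SE, adjusted p = 0.211), and Atp5sl, at 0.09 ± 0.15 (SE, adjusted p = 0.627), which had 0.18 (adjusted p = 0.524) and 0.02 (adjusted p = 0.937) without CD201- replicate 3. Both carry an Atp5 symbol but are not subunits of the enzyme: Atp5s is known as coupling factor B and Atp5sl, from work on human cells, as a factor for complex I assembly. With these 2 and the Ndufaf genes set aside, 46 of 77 tested members were lower in CD201+CD48- than CD201- cells, and 19 of 77 were lower in CD201+CD48+ than CD201- cells. These are 59.7% and 24.7%, beside 23.9% and 14.3% of all tested genes. Leaving out CD201- replicate 3 gave 51 and 37 of 77 (66.2% and 48.1%, beside 26.0% and 17.9%).

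Atp5g1, Atp5g2 and Atp5g3 encode the same c-ring protein with different import sequences. Of the 3, Atp5g3 was lower in CD201+CD48- than CD201- cells, at -0.35 ± 0.10 (SE, adjusted p = 0.00963). That is 33.3% of the 3, near the 23.9% of all tested genes. Without CD201- replicate 3 the share was 66.7%, beside 26.0%. Atp5g1 had -0.55 ± 0.22 (SE, adjusted p = 0.0612), and -0.82 (adjusted p = 2.38e-07) without CD201- replicate 3. Atp5g2 had 0.08 ± 0.29 (SE, adjusted p = 0.849) in the same comparison, and -0.26 (adjusted p = 0.145) without that library.

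Levels can be set side by side between genes only per length. Over all libraries, the most abundant members per kilobase of the canonical transcript were Cox6c, Atp5b and Atp5a1. Cox6c had 472 ± 19.6 in CD201+CD48-, 513 ± 55.9 in CD201+CD48+ and 602 ± 8.28 in CD201- cells (CPM per kilobase, SD, n = 3 each). Atp5b had 302 ± 3.31 in CD201+CD48-, 323 ± 4.57 in CD201+CD48+ and 433 ± 11.6 in CD201- cells, and Atp5a1 had 279 ± 8.47 in CD201+CD48-, 305 ± 8.76 in CD201+CD48+ and 398 ± 21.9 in CD201- cells. The median over the tested members was 42.0 CPM per kilobase in complex I, 39.1 in complex II, 61.2 in complex III, 77.0 in complex IV, 66.4 in complex V and 9.55 among the Ndufaf genes. Within complex IV the members ran from 7.24 to 529.3 CPM per kilobase, a wider span than the 16.7 to 92.4 of complex II.

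CD201- replicate 3 differed from the other CD201- libraries by transcript length in the medians over the members, though not in every member. Its members with transcripts under 600 nt had a median log2 difference of -0.58 from the mean of CD201- replicates 1 and 2 (n = 15). Members of 600 to 1200 nt had -0.13 (n = 29), and those of 1200 nt or more had -0.01 (n = 43). Some short members were higher in it, among them Uqcrb (558 nt) at 0.85 and Atp5k (371 nt) at 0.78. Members over 2-fold low in it were Ndufaf3, Atp5g2, Cox5a, Cox8a, Ndufa1 and Uqcr10. Of these, 3 had transcripts under 600 nt and 2 of 600 to 1200 nt, and the lowest, Ndufaf3 at -1.56, had 1497 nt. A low value in this library raises the spread of CD201- cells and lowers their mean, and the part of transcript length in the calls was not tested.

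**Figure D4:**
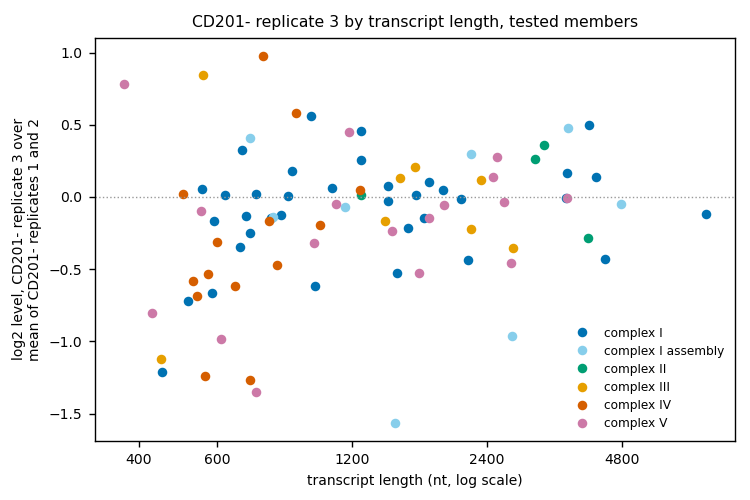
Log2 level in CD201- replicate 3 over the mean of CD201- replicates 1 and 2 (vertical axis) against transcript length in nt (horizontal axis, log scale) for the 87 tested members, coloured by complex. Points under 600 nt have a median of -0.58 and points of 1200 nt or more a median of -0.01.

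The 13 mitochondrially encoded subunits of the same complexes, which are transcribed inside the organelle, showed smaller differences. In CD201+CD48- against CD201- cells 1 of 13 was lower (7.69%, beside 23.9% of all tested genes), mt-Nd1 at -0.30 ± 0.10 (SE, adjusted p = 0.0201), with a median of -0.07 over the list. The call of mt-Nd1 was lost without CD201+CD48- replicate 1 or 3 or CD201- replicate 1 (adjusted p over all alternatives 1.1e-05 to 0.262). In the other comparisons 0 of 13 passed in edgeR, DESeq2 or limma, also at an unadjusted p under 0.05, with medians of -0.01 in CD201+CD48+ against CD201- cells and -0.06 between the CD201+ populations. With CD201- replicate 3 left out, 1, 1 and 2 of 13 were lower in the 3 comparisons. These are 7.69%, 7.69% and 15.4%, beside 26.0%, 17.9% and 14.5% of all tested genes. The summed level of the 13 was 11700 ± 206 CPM in CD201+CD48-, 12430 ± 1050 CPM in CD201+CD48+ and 12750 ± 224 CPM in CD201- libraries (SD, n = 3 each). As a share of raw counts the order differed, with 1.224% ± 0.0139, 1.268% ± 0.108 and 1.187% ± 0.0429 in the same populations. The difference between nuclear-encoded and mitochondrially encoded genes was not tested.

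Cytochrome c, its docking subunit and further respiratory proteins whose symbols fall outside the rule were described beside the members. Of 7 tested, 6 were lower in CD201+CD48- and 6 in CD201+CD48+ than CD201- cells (85.7% each, beside 23.9% and 14.3% of all tested genes). Cycs, cytochrome c itself, had 24.9 ± 4.42 CPM in CD201+CD48-, 28.0 ± 5.30 CPM in CD201+CD48+ and 38.6 ± 5.49 CPM in CD201- libraries (SD, n = 3 each), with a log2 fold change of -0.65 ± 0.16 (SE, adjusted p = 0.00436) in CD201+CD48- against CD201- cells. Cyc1, the cytochrome c1 of complex III, had -0.62 ± 0.12 (SE, adjusted p = 0.00059), and Atpif1, the inhibitor of ATP synthase, had -0.70 ± 0.13 (SE, adjusted p = 0.000422). Of 39 tested assembly factors outside the rule, 10 were lower in CD201+CD48- and 4 in CD201+CD48+ than CD201- cells, and 2 were lower in CD201+CD48- than CD201+CD48+ cells. These shares of 25.6%, 10.3% and 5.13% lie near or below those of all tested genes, 23.9%, 14.3% and 6.31%. Lrpprc, which stabilises mitochondrial mRNAs, had -0.60 ± 0.09 (SE, adjusted p = 4.23e-05) in CD201+CD48- against CD201- cells. In CD201+CD48+ against CD201- cells 1 assembly factor was higher, Nubpl, at 0.62 ± 0.20 (SE, adjusted p = 0.0298), a call lost without CD201- replicate 3, at 0.53 (adjusted p = 0.0505), and also without CD201- replicate 2 or CD201+CD48+ replicate 1 or 3 (adjusted p over all alternatives 0.0136 to 0.0949).

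Upstream of the chain, 14 of 22 tested genes of the tricarboxylic acid cycle and pyruvate entry were lower in CD201+CD48- than CD201- cells and 1 was higher. In CD201+CD48+ against CD201- cells 6 were lower and 1 higher, and 5 were lower in CD201+CD48- than CD201+CD48+ cells. The lower ones are 63.6%, 27.3% and 22.7% of the 22, beside 23.9%, 14.3% and 6.31% of all tested genes. The higher gene is 4.55% of the 22, beside 24.2% and 14.8%. Without CD201- replicate 3 the lower ones numbered 13, 6 and 10 (59.1%, 27.3% and 45.5%, beside 26.0%, 17.9% and 14.5%). Mdh2, the mitochondrial malate dehydrogenase, had 167 ± 6.45 CPM in CD201+CD48-, 198 ± 5.60 CPM in CD201+CD48+ and 277 ± 15.5 CPM in CD201- libraries (SD, n = 3 each), at -0.73 ± 0.07 (SE, adjusted p = 1.12e-06) in CD201+CD48- against CD201- cells. Idh3a, of the NAD-linked isocitrate dehydrogenase, had -0.79 ± 0.10 (SE, adjusted p = 1e-05). The gene that was higher in both CD201+ populations was Pdk2, a kinase that inhibits pyruvate dehydrogenase, with 10.8, 6.32 and 7.53 CPM in the CD201+CD48- libraries, 8.37, 9.26 and 7.15 CPM in the CD201+CD48+ libraries and 3.76, 2.58 and 0.877 CPM in the CD201- libraries. Of 7 carriers and porins, 4 were lower in CD201+CD48- and 3 in CD201+CD48+ than CD201- cells (5 and 6 without CD201- replicate 3). These are 57.1% and 42.9%, beside 23.9% and 14.3% of all tested genes (71.4% and 85.7%, beside 26.0% and 17.9%, without that library). Among the lower ones was the porin Vdac2, at -0.64 ± 0.08 (SE, adjusted p = 9.55e-06) in CD201+CD48- against CD201- cells.

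Among 17 regulators of mitochondrial genes, 8 were lower in CD201+CD48- than CD201- cells and 2 were higher. These are 47.1% and 11.8%, beside 23.9% and 24.2% of all tested genes. In CD201+CD48+ against CD201- cells 1 was lower and 1 higher (5.88% each, beside 14.3% and 14.8%). Between the CD201+ populations 3 were lower in CD201+CD48- cells (17.6%, beside 6.31%) and 0 were higher. Myc had 102, 107 and 108 CPM in the CD201+CD48- libraries, 169, 158 and 172 CPM in the CD201+CD48+ libraries and 230.0, 232 and 156 CPM in the CD201- libraries, at -0.96 ± 0.12 (SE, adjusted p = 1.95e-05) in CD201+CD48- against CD201- cells and -0.66 ± 0.12 (SE, adjusted p = 0.00227) in CD201+CD48- against CD201+CD48+ cells. Tfam, which packages and transcribes mitochondrial DNA, had -0.48 ± 0.11 (SE, adjusted p = 0.00192), and the helicase Twnk had -0.59 ± 0.09 (SE, adjusted p = 0.000102) in CD201+CD48- against CD201- cells. Among factors whose letters were searched above, Nrf1 had -0.25 ± 0.08 (SE, adjusted p = 0.0217), Gabpa -0.29 ± 0.08 (SE, adjusted p = 0.00658) and Yy1 -0.30 ± 0.09 (SE, adjusted p = 0.015) in that comparison, and Esrra, at -0.25 ± 0.17 (SE, adjusted p = 0.227), did not pass, and had -0.15 (adjusted p = 0.543) without CD201- replicate 1. The call of Nrf1 was lost without CD201+CD48- replicate 1 or 2, and that of Yy1 without CD201+CD48- replicate 3 (adjusted p over all alternatives 0.0166 to 0.48 and 0.00218 to 0.212). Gabpa and the member Atp5j have overlapping spans. The 2 that were higher were Polg, the mitochondrial DNA polymerase, at 0.35 ± 0.11 (SE, adjusted p = 0.0138) and 0.30 (adjusted p = 0.0514) without CD201- replicate 2, and Ppargc1a, the coactivator PGC-1α. Ppargc1a was scarce, with 2.30, 2.02 and 3.10 CPM in the CD201+CD48- libraries, 0.683, 1.13 and 1.79 CPM in the CD201+CD48+ libraries and 0.443, 0.215 and 0 CPM in the CD201- libraries, and its CD201- value rests on 3 counts (adjusted p = 0.000795 in CD201+CD48- against CD201- cells).

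Markers of cell division and of other cell types moved with the populations too. All 8 proliferation genes were lower in CD201+CD48- than CD201- cells and than CD201+CD48+ cells (100% each, beside 23.9% and 6.31% of all tested genes). In CD201+CD48+ against CD201- cells 4 of 8 were lower (50%, beside 14.3%), and 6 without CD201- replicate 3 (75%, beside 17.9%). The summed level of the 8 was 3737 to 3863 CPM in CD201+CD48-, 5347 to 5470 CPM in CD201+CD48+ and 6049 to 7659 CPM in CD201- libraries. The 6 megakaryocyte and platelet markers summed to 1272 to 1331 CPM in CD201+CD48-, 248.5 to 264.8 CPM in CD201+CD48+ and 462 to 539 CPM in CD201- libraries, with no marker at 0. The 6 HSC markers summed to 1366 to 1388, 812 to 828 and 322 to 357 CPM in CD201+CD48-, CD201+CD48+ and CD201- libraries, with Hoxb5 at 0 in CD201- cells. The 6 mast cell and basophil markers summed to 5.09 to 9.35, 2.89 to 4.61 and 35.9 to 44.0 CPM, with Mcpt8 and Prss34 at 0 in CD201+CD48-, Fcer1a at 0 in CD201+CD48+ and Prss34 at 0 in CD201- cells. Gzmb, which averaged 4.57, 1.65 and 31.9 CPM, made up most of the CD201- sum. The 6 erythroid markers summed to 196 to 221, 136 to 148 and 49.97 to 92.5 CPM, with Hba-a1 and Car1 at 0 throughout, and the 6 lymphoid markers to at most 0.253, 0.275 and 0.221 CPM. Most of the erythroid sums is Hbb-bt, which averaged 206, 138 and 74.0 CPM. The 6 markers of granulocyte and monocyte progenitors summed to 16.2 to 21.9, 19.8 to 20.8 and 23.7 to 38.5 CPM, with Mpo and Elane at 0 in CD201+CD48- and Elane at 0 in CD201+CD48+ cells. Of them Mpo averaged 0, 1.24 and 10.2 CPM and Ctsg 0.143, 0.401 and 2.91 CPM, and both were lower in each CD201+ population than CD201- cells. Prtn3, at 14.9, 15.6 and 15.9 CPM, and Csf1r, at 3.33, 2.74 and 2.85 CPM, passed in no comparison. Elane and Ms4a3 had too few counts to be tested. The 6 markers of mature neutrophils and macrophages summed to 20.1 to 21.7, 11.0 to 13.2 and 7.53 to 8.77 CPM, with S100a9 at 0 in all libraries, S100a8 at 0 in both CD201+ populations, Ngp at 0 in CD201+CD48+ and Adgre1 at 0 in CD201- cells, and Ltf averaged 8.16, 5.10 and 0.948 CPM. Cd68, the larger part of these sums, averaged 12.3, 7.19 and 6.84 CPM. The 6 endothelial and stromal markers summed to 126 to 146, 123 to 131 and 195 to 201 CPM, with none at 0. Most of each sum is Pecam1, which averaged 91.7, 85.5 and 130 CPM. Among the others, Pdgfrb averaged 5.17, 17.7 and 48.4 CPM, Kdr 27.3, 20.7 and 18.2 CPM and Cdh5 8.42, 2.53 and 1.31 CPM. The part of these differences in the levels of the members was not tested.

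The sources used here do not give how reads shared between near-identical copies were counted. It bears on the Atp5g genes and on members with processed pseudogenes. The 7 rows dropped as pseudogenes had 0 counts in all libraries. The spans of 30 of the 93 members overlap another annotated gene in GRCm38.p6, and whether counting used strand is not given. Reads of Uqcrq and Gdf9, of Atp5a1 and Haus1, or of Cox4i2 and Bcl2l1, therefore cannot be told apart where they overlap.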

How the data were processed

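Bulk RNA-seq of 9 libraries, 3 for each of 3 sorted populations, was analysed. Per the labels' protocols, RNA of over 5000 sorted cells a population was taken with Trizol LS and made into SMARTer libraries, read as pairs of 36 nt. The raw table deposited by the authors holds counts per gene symbol, with no normalization. The submitters' processing notes name mm10 and DESeq2 without versions; the sources used here do not give the aligner, counter, annotation or use of strand. The deposited normalized signal equals the raw counts over 1 factor per library (relative deviation at most 5.1e-10) and was used for an alternative; 3 columns of per-sample values matched no sample and were not used.

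Genes were kept by filterByExpr (minimum count 10) and tested by edgeR 4.0.16 in R 4.3.3 (glmQLFit, robust; glmQLFTest) on TMM-scaled counts of all 9 libraries, with group as the factor and a biological coefficient of variation of 8.64%. P-values were adjusted by Benjamini-Hochberg over 11619 genes. Standard errors are the absolute log2 fold change over the square root of F. The procedure was tested on simulated data. Of the 17 alternatives, 9 left out 1 library; the others used DESeq2 1.42.0, limma 3.58.1 on log2(deposited value + 1), other scalings or filters, 2 groups alone or a replicate block. The members and lists were chosen with earlier results of these data known. Named members are the 3 with the smallest p per complex and comparison, all Sdh genes, complex I core subunits, isoform sets, the most abundant per length, untested members, and the largest changes past the threshold in each direction; others were named after their values were seen. Some items under this rule are not reported here. Transcript lengths are those of GENCODE canonical transcripts; positions and promoters are from RefSeq. Intervals and floors cover counting error only.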

Additional observations from a re-analysis of the deposited data

How the results depend on the processing

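Among the named genes, over 17 alternatives, 3468 values kept their direction and side of the threshold, 187 lost a call, 105 gained one and 100 changed sign without a call or had no tested value; no call turned to the other direction. In CD201+CD48- against CD201- cells, library size alone gave 27 lower members and a median of -0.18, and a mean of at least 10 CPM gave 1 higher member; leaving out 1 library gave 1 to 4 higher members. In CD201+CD48+ against CD201- cells, library size alone gave 6 lower and 2 higher members and a median of -0.038, a mean of at least 10 CPM gave 1 higher, and fitting the 2 groups alone gave 10 lower (11.5% of members, beside 10.5% of all genes); leaving out 1 library gave 9 to 37 lower and 0 to 3 higher. Between the CD201+ populations, library size alone and DESeq2 each gave 2 lower members, and the 2 groups alone gave 13 lower and 1 higher (14.9% and 1.15% of members, beside 13.7% and 15.3% of all genes); leaving out 1 library gave 1 to 14 lower and 0 to 1 higher. The cause of these changes was not tested. By library size alone, the lower members were 31.0% and 6.90% of members against CD201- cells, while 14.5% of all genes were lower and 34.2% higher in CD201+CD48- against CD201- cells, and 7.32% and 23.2% in CD201+CD48+ against CD201- cells. Same-numbered libraries did not deviate together (correlations -0.113 to 0.0447). With 3 libraries a group, this cannot show whether equal numbers share a culture or animal, which the labels do not state. With a replicate block 43, 20 and 2 members were lower in the 3 comparisons. With 3 libraries a group and 1 of them apart, calls near the threshold in CD201+CD48+ against CD201- cells and between the CD201+ populations are the least firm.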
